A study of Mus musculus with 6 samples.

Results

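Soft tissues stay free of mineral through secreted inhibitors, and the aortic valve, whose leaflets calcify in human valve disease, expresses several of them. Here 8 genes of calcification inhibition or pyrophosphate metabolism were followed, namely Mgp, Enpp1, Ank, Tnfrsf11b, Spp1, Abcc6, Nt5e and Alpl. They were read by gene symbol among the 23107 genes counted in adult mouse aortic valves. The genes were chosen by name, as inhibitors of calcification and enzymes or transporters of pyrophosphate metabolism, with earlier results of these data known. All 8 were listed in all 6 libraries.

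Pyrophosphate blocks the growth of calcium phosphate crystals. Cells release ATP, which Enpp1 at the cell surface cleaves into AMP and pyrophosphate, and Nt5e then turns the AMP into adenosine, while the alkaline phosphatase Alpl destroys pyrophosphate and frees phosphate for mineral. Matrix Gla protein (Mgp) and osteopontin (Spp1) bind mineral directly, and osteoprotegerin (Tnfrsf11b) is a decoy receptor that captures RANKL, the ligand that drives osteoclast formation.

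The libraries came from aortic valves of outbred mice aged 4 months, 3 controls labelled wild type and 3 mutants labelled Acvr1:Nfatc1Cre. The mutants carried a constitutively active Acvr1 transgene (caAcvr1) switched on by Cre knocked into the Nfatc1 locus, which acts in the endocardium, in cells derived from it and at the junction of leaflet and wall, so that other cells of the tissue keep their own receptor alone. The study used as controls mice that lacked the transgene, the Cre or both, and which of these genotypes were sequenced is not given in the sources used here, nor is pooling of mice. The replicates are separate samples by their labels, and p-values weigh the difference between groups against the spread between these samples. With pooling unknown, that spread need not be the spread between single mice.

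The controls held 46180666 to 55728854 fragments per library and the mutants 32218343 to 53129459. Markers of valve interstitial cells and fibroblasts (6 genes, summed level 9557 to 12146 CPM) and of endothelium (6 genes, 1303 to 2125 CPM) were read in every library, where CPM is the count scaled to the size of its library with TMM factors, so that libraries of different depth can be compared. The tissue also held cardiac muscle (8 markers, 11907 CPM in control replicate 2 to 38292 CPM in mutant replicate 1) and smooth muscle. The 6 smooth muscle markers summed to 6081, 13424 and 5902 CPM in controls 1 to 3 and to 2231, 5604 and 6011 CPM in mutants 1 to 3, so control replicate 2 was high and mutant replicate 1 low. Markers of osteoblasts were near 0, with the 4 genes Sp7, Bglap, Ibsp and Dmp1 summing to 0.126 to 1.39 CPM per library. The 5 genes induced by dissection stress summed to 508 to 696 CPM in the controls and 651 to 819 CPM in the mutants, with all 5 log2 fold changes above 0, and their part in the results was not tested.

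Of the 8 genes, 5 had an entry in the RefSeq promoter table (GRCm38.p6), namely Enpp1, Ank, Spp1, Nt5e and Alpl. The 250 bases before the first listed start of Enpp1, Ank and Spp1 are shown because these genes are, in the counts below, the member with the smallest spread between replicates, a member whose group means were nearly equal, and the member with the largest spread. They lie on chr10:24712160-24712409 (minus strand), chr15:27466427-27466676 (plus strand) and chr5:104434861-104435110 (plus strand). Capitals mark the TATA word TATAAA, the GC box GGGCGG, the word ACCACA found in RUNX sites and the word GGCGCC found in sites of BMP SMADs, searched on both strands.
Enpp1: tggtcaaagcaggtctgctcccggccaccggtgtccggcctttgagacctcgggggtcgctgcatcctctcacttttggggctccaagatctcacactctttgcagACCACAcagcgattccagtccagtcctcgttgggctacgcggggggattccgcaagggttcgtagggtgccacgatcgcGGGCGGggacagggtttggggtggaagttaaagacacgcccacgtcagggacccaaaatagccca
Ank: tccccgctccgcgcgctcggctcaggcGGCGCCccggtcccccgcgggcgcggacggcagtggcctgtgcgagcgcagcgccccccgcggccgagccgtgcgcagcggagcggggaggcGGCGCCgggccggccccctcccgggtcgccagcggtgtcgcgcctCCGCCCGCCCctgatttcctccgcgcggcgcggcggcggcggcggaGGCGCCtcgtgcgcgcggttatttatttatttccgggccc
Spp1: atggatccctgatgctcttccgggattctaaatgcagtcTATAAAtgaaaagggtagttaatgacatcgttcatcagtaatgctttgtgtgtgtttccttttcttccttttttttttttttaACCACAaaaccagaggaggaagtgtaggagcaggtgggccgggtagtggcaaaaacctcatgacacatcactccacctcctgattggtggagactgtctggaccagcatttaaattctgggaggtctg
The Enpp1 window held 17 CG pairs, that of Ank 49 and that of Spp1 3, against a median of 6 over all 32851 windows of this length in the table. The GC box and the RUNX word each stood once in the Enpp1 window, and the TATA and RUNX words once each in that of Spp1. The Ank window held the SMAD word at 3 places and an overlapping pair of GC boxes on the opposite strand. Over all windows, 12.4% held the TATA word, 32.7% the GC box, 14.0% the RUNX word and 9.59% the SMAD word on either strand. A match is a description of the letters only.

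To compare genes with each other, levels were divided by the summed exon length of the GENCODE M21 models. Mgp stood far above the others, at 1294 ± 158 CPM per kilobase (SD, n = 3) in the controls and 1100 ± 210 (SD, n = 3) in the mutants. It ranked 17 among the 15177 tested genes with a known length in the controls and 20 in the mutants. In the controls Ank followed at 33.1 CPM per kilobase, then Spp1 at 31.5, Tnfrsf11b at 10.6, Alpl at 6.12, Nt5e at 4.63, Enpp1 at 1.86 and Abcc6 at 0.0258. Libraries of neighbours in this order overlapped for Ank and Spp1, for Spp1 and Tnfrsf11b and for Alpl and Nt5e, whereas those of Mgp and Ank, Tnfrsf11b and Alpl, Nt5e and Enpp1, and Enpp1 and Abcc6 did not. In the mutants the order of the middle genes differed, with Spp1 at 9.03, Alpl at 6.89, Tnfrsf11b at 5.59 and Nt5e at 5.31 CPM per kilobase, and each of these neighbours overlapped. Mgp was highest, Enpp1 second lowest and Abcc6 lowest in all 6 libraries.

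**Figure D1:**
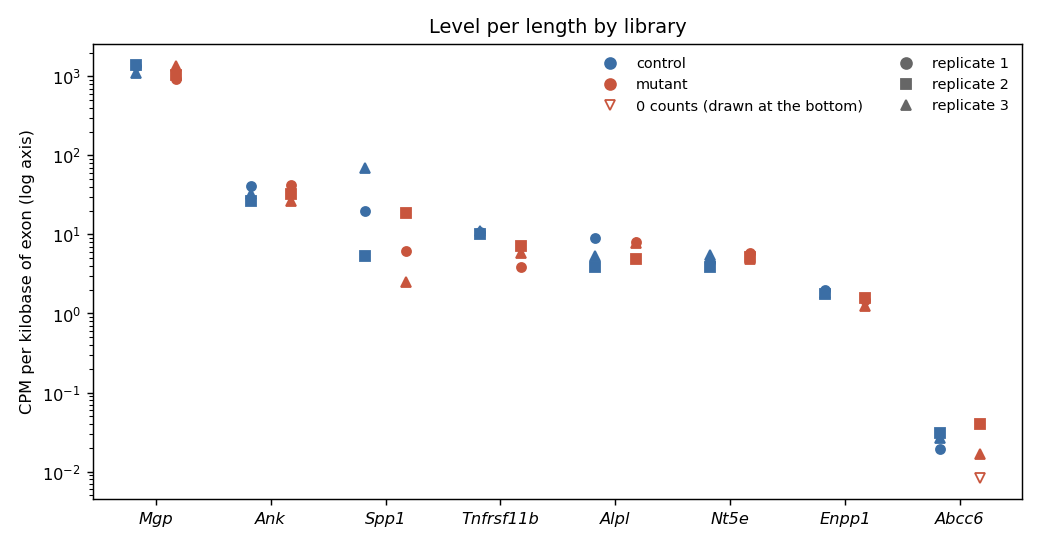
Level of each gene per kilobase of exon (CPM per kilobase, log axis) in 3 control and 3 mutant libraries, 1 point per library. Mgp lies above 930 in every library and Abcc6 below 0.04, Spp1 spans 2.53 to 69.4, and Tnfrsf11b is lower in every mutant (3.87 to 7.05) than in every control (10.1 to 10.9).

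To ask which of these genes differed in the mutant valves, each was read from a test over all 15354 genes that reached 10 counts in 3 or more libraries, which 7 of the 8 passed. In 2 of the 7, Tnfrsf11b and Enpp1, every mutant lay below every control, and in 0 did every mutant lie above. Over all genes tested, 4.83% lay wholly below and 4.04% wholly above. By the quasi-likelihood test of edgeR, 0 of the 7 had an adjusted p under 0.05, and the same held for 0% of all genes. At an unadjusted p under 0.05 there were 2 of the 7 (Tnfrsf11b and Enpp1), and 529 genes or 3.45% over all, with 1.86% lower and 1.59% higher. DESeq2 called 26 genes or 0.169% at an adjusted p under 0.05 and limma-voom 0, with 0 of the 7 in either. The log2 fold change, mutants against controls, was below 0 in 4 and above 0 in 3 of the 7, with a median of -0.24 against 0.0097 for all genes tested.

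**Figure D2:**
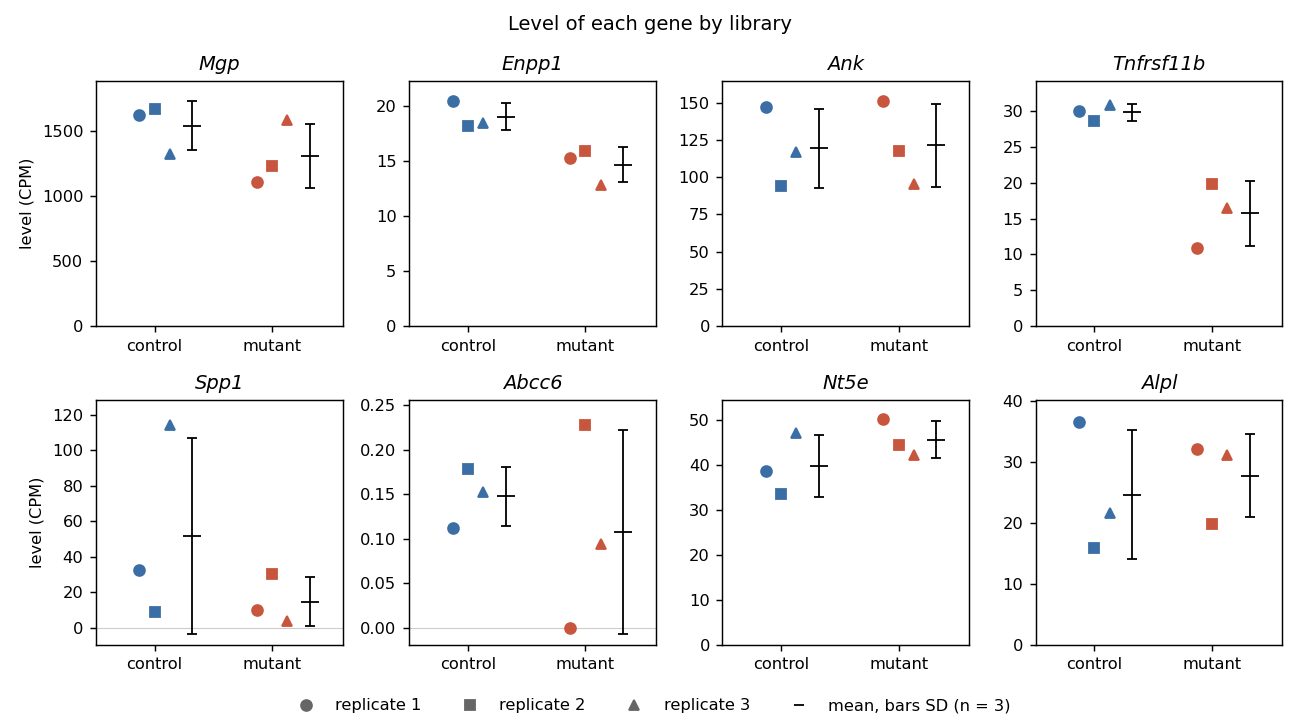
Level of each of the 8 genes (CPM, linear axis, each panel with its own scale) in control and mutant libraries, with replicates by symbol and the mean ± SD (n = 3) beside them. Tnfrsf11b and Enpp1 are the genes in which the groups do not overlap, and the control libraries of Spp1 range from 8.88 to 114 CPM.

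Tnfrsf11b lies on chromosome 15 (GRCm38, minus strand, 54250619 to 54278484). The paper had already reported reduced osteoprotegerin expression in these mutants, with lower protein staining. Controls 1 to 3 stood at 30.0, 28.6 and 30.9 CPM and mutants 1 to 3 at 10.9, 19.9 and 16.5 CPM. The controls lay close together and every mutant lay below them, with the mutants themselves spread 1.82-fold against 1.08-fold in the controls. The mutants stood at 0.528 of the control level, a log2 fold change of -0.92 (standard error, SE, 0.22, 95% interval -1.43 to -0.41, unadjusted p = 0.00365, edgeR adjusted p = 0.999). In DESeq2 its adjusted p was 0.0809, the lowest over the alternatives, which ran up to 1.00. The exact permutation test gave a two-sided p of 0.1, the smallest that 3 against 3 allow. In whole tissue, fewer cells of a type and less RNA per cell cannot be told apart.

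All 6 smooth muscle markers had a log2 fold change below 0 (median -0.89), and in 3 of them every mutant lay below every control, against 4.83% of all genes. Without control replicate 2 their log2 fold changes ran from -0.56 (Myh11) to -0.20 (Acta2). Their summed level, from 2231 to 6011 CPM in the mutants and 5902 to 13424 CPM in the controls, was lowest in mutant replicate 1, where Tnfrsf11b was lowest too. Control replicate 2, with the highest smooth muscle sum, had the lowest Tnfrsf11b of the controls. When control replicates 1 and 3 were set against mutant replicates 2 and 3, whose smooth muscle sums lay between 5604 and 6081 CPM, the log2 fold change of Tnfrsf11b was -0.74 (unadjusted p = 0.00302, adjusted p = 0.791 from the edgeR test). That choice of libraries was made after seeing the data and took account of smooth muscle only. The cardiac muscle sums of these 4 libraries ran from 17259 to 36888 CPM. The part of smooth muscle in the lower level of Tnfrsf11b was not tested.

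The ligand that Tnfrsf11b captures, RANKL (Tnfsf11), was barely read, with 12, 5 and 0 counts in controls 1 to 3 and 15, 3 and 6 in mutants 1 to 3. Per length, the Tnfsf11 level was 0.00939, 0.00436 and 0 times that of Tnfrsf11b in the controls and 0.0335, 0.00482 and 0.0144 times in the mutants, so the groups overlapped and the ratio rested on a few counts. The signaling receptor of RANKL, RANK (Tnfrsf11a), stood at 16.3, 33.9 and 21.8 CPM in controls 1 to 3 and at 8.88, 27.3 and 13.5 CPM in mutants 1 to 3. The log2 fold change of Tnfrsf11a was -0.54 (SE 0.44) with overlapping groups. With mutant replicate 2 left out it stood at -1.10, with control replicate 2 left out at -0.20, and it was 0.11 between the 4 libraries of like smooth muscle level. Of the RANKL and TRAIL list, 5 of 6 genes were tested, 4 lower and 1 higher, and 0 passed the adjusted threshold. Tnfrsf10b, a receptor for TRAIL, which osteoprotegerin also binds, was below the controls in every mutant, with a log2 fold change of -0.18 (SE 0.17), and Lgr4, another receptor for RANKL, had one of -0.09 (SE 0.20).

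The 3 genes whose pattern over the 6 libraries lay closest to Tnfrsf11b, among 12640 others with a mean count of at least 100, included Angptl4 and Nrxn2. Their root mean square differences from it, on log2 CPM with each gene centred on its own mean, were 0.16 and 0.20. For Enpp1 the 3 closest were Zfp78, Gm10516 and BC068281, at 0.048, 0.060 and 0.062.

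Enpp1, which generates extracellular pyrophosphate, lies on chromosome 10 (minus strand, 24637914 to 24712159). Controls 1 to 3 stood at 20.5, 18.2 and 18.4 CPM and mutants 1 to 3 at 15.3, 15.9 and 12.8 CPM. The mutants lay below the controls without overlap, by a margin smaller than for Tnfrsf11b. The log2 fold change of Enpp1 was -0.37 (SE 0.13, 95% interval -0.69 to -0.059, unadjusted p = 0.0264, edgeR adjusted p = 0.999), or 0.771 of the control level, and its adjusted p was 0.849 in DESeq2. Its counts ran from 409 to 1096 per library. Between the 4 libraries of like smooth muscle level its log2 fold change was -0.43 (unadjusted p = 0.0531, adjusted p = 0.823 from the edgeR test).

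Ank (chromosome 15, plus strand, 27466677 to 27594909), a transporter that brings pyrophosphate or its source ATP out of the cell, differed more within the groups than between them. Controls 1 to 3 stood at 147, 94.3 and 117 CPM and mutants 1 to 3 at 151, 118 and 95.3 CPM. In either group the highest library stood more than 1.5-fold above the lowest, and the log2 fold change of 0.02 (SE 0.22, 95% interval -0.49 to 0.54) had no stable sign, at -0.12 without control replicate 2 and -0.17 without mutant replicate 1. The 8 cardiac muscle markers summed to 30942, 11907 and 36888 CPM in controls 1 to 3 and to 38292, 17259 and 27432 CPM in mutants 1 to 3. Ank was highest in mutant replicate 1, which had the highest of these sums, and lowest in control replicate 2, which had the lowest, while control replicate 3 and mutant replicate 3 had higher sums than mutant replicate 2 without a higher level of Ank. The part of cardiac muscle in this spread was not tested.

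Abcc6 (chromosome 7, minus strand, 45967555 to 46030302), which mediates ATP release from liver cells and so feeds circulating pyrophosphate, was barely read in the valve. Controls 1 to 3 had 6, 9 and 7 counts and mutants 1 to 3 had 0, 9 and 3, too few for the test. Its level averaged 0.147 ± 0.0333 CPM over the controls and 0.107 ± 0.114 CPM over the mutants (SD, n = 3 each). The 0 in mutant replicate 1 allows a level of up to 0.0579 CPM, taking 3 counts as the limit, which covers counting error only. The groups overlapped, and no difference was detectable at this depth.

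Alpl (chromosome 4, minus strand, 137741733 to 137796384), the phosphatase that removes pyrophosphate, stood at 36.6, 15.8 and 21.7 CPM in controls 1 to 3 and at 32.2, 19.9 and 31.2 CPM in mutants 1 to 3. The control libraries spanned 2.31-fold and enclosed the mutants. Its log2 fold change was 0.17 (SE 0.33, 95% interval -0.61 to 0.95, edgeR adjusted p = 0.999), and without control replicate 2, the lowest library, it was -0.065, while without control replicate 1, the highest, it was 0.57. Gene counts do not tell apart transcripts from the 2 Alpl starts in the promoter table. Per length, the level of Alpl was 4.55, 2.21 and 2.99 times that of Enpp1 in the controls and 5.36, 3.18 and 6.19 times in the mutants. The highest ratios were in mutants and the lowest in a control, with overlap, since control replicate 1 exceeded mutant replicate 2.

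Nt5e (chromosome 9, plus strand, 88327197 to 88372092), which makes adenosine from AMP, stood at 38.6, 33.6 and 47.2 CPM in controls 1 to 3 and at 50.2, 44.6 and 42.3 CPM in mutants 1 to 3. The groups overlapped through control replicate 3. Its log2 fold change was 0.20 (SE 0.15, 95% interval -0.15 to 0.55, edgeR adjusted p = 0.999), with 0.094 without control replicate 2, 0.34 without control replicate 3 and 0.023 between the 4 libraries of like smooth muscle level. Of 13 genes for extracellular adenosine, 12 were tested, 4 lower and 8 higher, and 0 passed the adjusted threshold. The receptors Adora3 and Adora2b had log2 fold changes of 0.89 (SE 0.59) and -0.66 (SE 0.45), both from low levels. Adora3 was at 0.49 without control replicate 3 and Adora2b at -0.28 without control replicate 1. The nucleoside transporter Slc29a1, the highest of this list per length, had a log2 fold change of -0.09 (SE 0.13), at -0.19 when mutant replicate 2 was left out and -0.024 when mutant replicate 3 was.

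For phosphate and pyrophosphate handling, 9 of 10 genes were tested, 5 lower and 4 higher, and 0 passed the adjusted threshold. Slc20a1, a sodium-phosphate cotransporter, averaged 19.5 ± 2.06 CPM over the controls and 24.0 ± 3.43 CPM over the mutants (SD, n = 3 each), with every mutant above every control. Its log2 fold change was 0.30 (SE 0.15, unadjusted p = 0.0813 from the edgeR test), and 0.18 without mutant replicate 2. Slc20a2, its paralog and the highest of the list per length, had a log2 fold change of 0.01 (SE 0.25), which was below 0 without control replicate 2. Fgfr1, a receptor for the phosphate hormone Fgf23 and for other FGFs, had a log2 fold change of -0.20 (SE 0.12), which was -0.10 without control replicate 2.

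**Figure D3:**
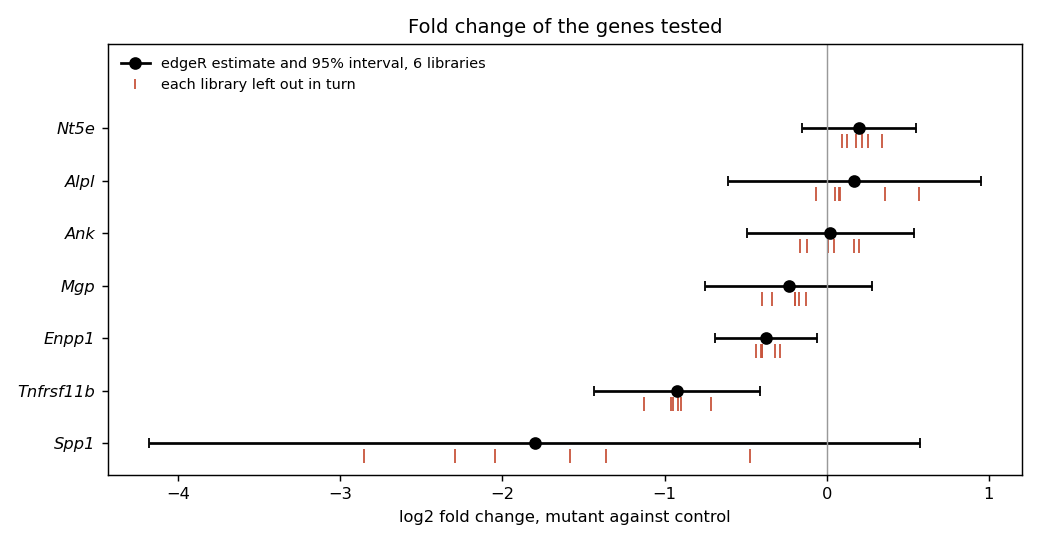
Log2 fold change, mutants against controls, of the 7 genes tested, with the edgeR estimate and its 95% interval (black) and the estimates with each library left out in turn (red ticks). The intervals of Tnfrsf11b (-1.43 to -0.41) and Enpp1 (-0.69 to -0.059) lie below 0 before adjustment, that of Spp1 is the widest (-4.18 to 0.57), and those of Mgp, Ank, Alpl and Nt5e span 0.

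Mgp (chromosome 6, minus strand, 136872435 to 136875823) is a small vitamin K dependent protein whose Gla residues bind calcium. Controls 1 to 3 stood at 1620, 1668 and 1321 CPM and mutants 1 to 3 at 1104, 1228 and 1584 CPM. The groups overlapped, since mutant replicate 3 lay above control replicate 3. The log2 fold change was -0.24 (SE 0.22, 95% interval -0.75 to 0.28, edgeR adjusted p = 0.999), at -0.40 when mutant replicate 3 was left out and -0.13 when mutant replicate 1 was, and it was -0.061 between the 4 libraries of like smooth muscle level. Its counts ran from 48521 to 86792 per library.

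Of 10 genes for Gla proteins, the vitamin K cycle and secreted inhibitors, 8 were tested, 5 lower and 3 higher, and 0 passed the adjusted threshold. Ggcx, the carboxylase that makes Gla residues, averaged 86.8 ± 4.78 CPM over the controls and 74.5 ± 5.22 CPM over the mutants (SD, n = 3 each), lower in every mutant. Its log2 fold change was -0.22 (SE 0.096, unadjusted p = 0.0553 from the edgeR test). Gas6, another Gla protein and the highest of the list per length, was also lower in every mutant, with a log2 fold change of -0.26 (SE 0.16) that was -0.15 without control replicate 2.

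Spp1 (chromosome 5, plus strand, 104435118 to 104441050) encodes osteopontin, an acidic phosphoprotein of bone and of activated macrophages. Controls 1 to 3 stood at 32.6, 8.88 and 114 CPM and mutants 1 to 3 at 10.1, 30.4 and 4.18 CPM. Libraries of the same group differed up to 12.9-fold in the controls and 7.28-fold in the mutants, and the groups overlapped. The SD of log2 CPM within groups was 1.65 for Spp1, and 0.396% of the 12641 genes with a mean count of at least 100 exceeded it. For the other members tested it ran from 0.13 for Enpp1 to 0.51 for Alpl, with a median of 0.20 over those genes.

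The log2 fold change of Spp1, -1.80 (SE 1.00, 95% interval -4.18 to 0.57, edgeR adjusted p = 0.999), rested on control replicate 3, without which it was -0.47, and it was -2.85 without mutant replicate 2. The 6 macrophage markers summed to 379 to 425 CPM in the controls and to 460 to 500 CPM in the mutants, higher in every mutant, and each had a log2 fold change above 0 (median 0.29). The macrophage sum was 403 CPM in control replicate 3, which had the highest Spp1, and 486 CPM in mutant replicate 3, which had the lowest. The 4 osteoblast markers summed to 1.16, 0.593 and 1.39 CPM in controls 1 to 3 and to 0.946, 0.430 and 0.126 CPM in mutants 1 to 3. These sums rested on few counts, at most 34 for Sp7, 4 for Bglap, 54 for Ibsp and 9 for Dmp1 in a library. The highest and lowest osteoblast sums were in the same libraries as the highest and lowest levels of Spp1. Mutant replicate 2, however, had a lower sum than mutant replicate 1 and a higher level of Spp1. The part of other cell types in the spread of Spp1 was not tested.

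**Figure D4:**
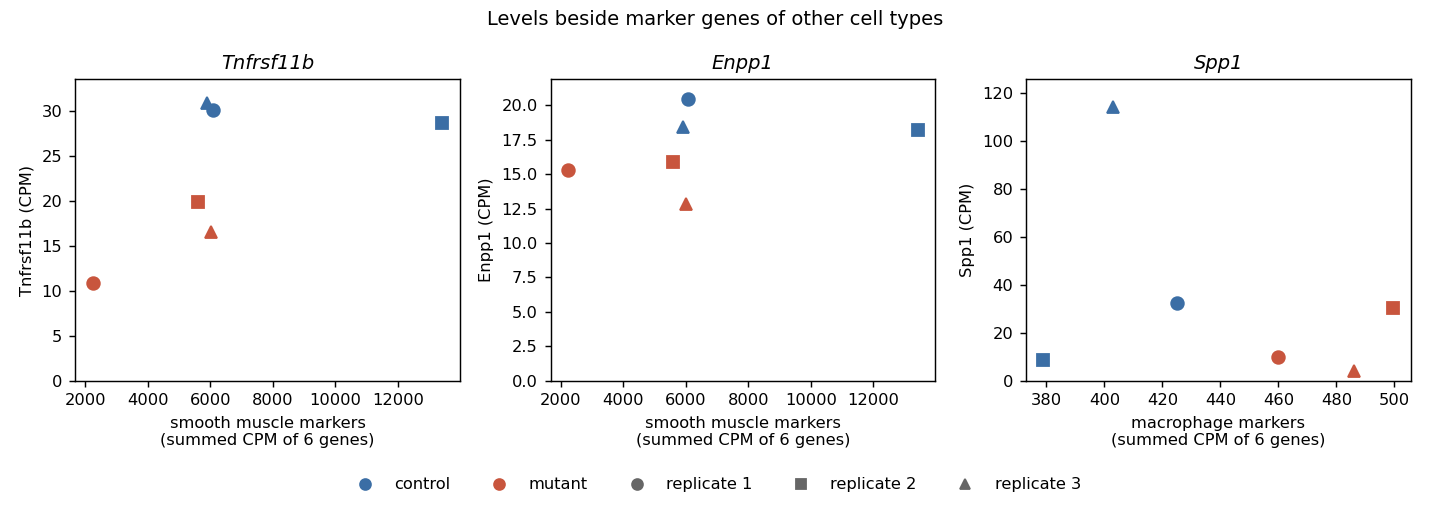
Level of Tnfrsf11b and of Enpp1 against the summed level of 6 smooth muscle markers, and of Spp1 against that of 6 macrophage markers (CPM, linear axes, 1 point per library, mutants red). Smooth muscle sums run from 2231 CPM in mutant replicate 1 to 13424 CPM in control replicate 2, with the other 4 libraries between 5604 and 6081 CPM, and Spp1 peaks at 114 CPM in a control with a macrophage sum of 403 CPM.

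Of 13 osteopontin receptors and related acidic bone proteins, 10 were tested, 8 lower and 2 higher, and 0 passed the adjusted threshold. The integrin subunits Itgb5 and Itga9, which form receptors for osteopontin with their partners, were lower in every mutant, with log2 fold changes of -0.51 (SE 0.18) and -0.40 (SE 0.17) and unadjusted p-values of 0.0271 and 0.0491 from the edgeR test. Itgb5 was at -0.32 without control replicate 2 and at -0.24 between the 4 libraries of like smooth muscle level. Itgb1, the highest of the list per length, had a log2 fold change of -0.21 (SE 0.26), which turned to 0.071 without control replicate 2.

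Among 11 osteogenic factors, all tested, 8 were lower and 3 higher, and 0 passed the adjusted threshold. Phex, an endopeptidase of bone cells that cleaves osteopontin, stood at 2.48, 5.56 and 2.24 CPM in controls 1 to 3 and at 1.37, 1.27 and 1.63 CPM in mutants 1 to 3. Every mutant lay below every control, and its log2 fold change of -1.27 (SE 0.42, unadjusted p = 0.0198 from the edgeR test) was -0.73 without control replicate 2. Bmp4 had a log2 fold change of -0.77 (SE 0.35), which was -0.22 without control replicate 2, and Sparc, the highest per length, one of -0.26 (SE 0.29), at -0.44 without control replicate 1 and -0.081 without mutant replicate 1. Over the 6 lists together, 55 of 63 genes were tested and 0 had an adjusted p under 0.05 in edgeR, in DESeq2 or in limma-voom, while 3 of the 55 (Itgb5, Itga9 and Phex) had an unadjusted p under 0.05 in edgeR, against 3.45% of all genes. That count was 0 without control replicate 2, 1 without mutant replicate 3 and 4 without control replicate 1 or 3 and in DESeq2. It was 6 with the replicate number as a block and 7 between the 4 libraries of like smooth muscle level. Over all genes the count moved too, from 529 to 435 without control replicate 2 and 483 without mutant replicate 3. It was 633 without control replicate 1, 478 without control replicate 3 and 683 in DESeq2. With the block it was 814, and between those 4 libraries 925.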

How the data were processed

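Aortic valve RNA of 3 control and 3 mutant samples was sequenced on an Illumina HiSeq. Alignment to mm10 used Bowtie2, and the authors took gene counts from Cufflinks and Cuffdiff (TopHat2 2.0.13, Bowtie2 2.2.1 and Cuffdiff 2.1.1 per the submitters' processing notes). The values deposited are estimated counts per gene, not scaled for library size, and 1.66% to 1.87% of the values per library differed from a whole number, with a tolerance of 0, and were rounded. The annotation and the strand setting of the counting are not given in the sources used here. Columns were matched to samples by their description.

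Genes that reached 10 counts in 3 or more libraries were tested in R 4.3.3 with edgeR 4.0.16 (TMM, quasi-likelihood F test, two-sided, no covariate), with Benjamini-Hochberg adjustment over all 15354 genes. Standard errors and 95% intervals were computed from the fold change, the F statistic and its degrees of freedom, and the intervals are not adjusted. The alternatives were DESeq2 1.42.0, limma-voom (limma 3.58.1) with and without sample quality weights, RLE normalization, no filter, a mean count of at least 100, the replicate number as a block and leaving out each library. Single genes were also compared with an exact permutation test on log2 CPM. The pipeline was tested on simulated data. Exon lengths came from GENCODE M21 (GRCm38, the assembly of mm10), by symbol. The authors' Cuffdiff comparison needs aligned reads and was not run.

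The members and gene lists were chosen with earlier results of these data known. The text names all members and, in each list, the 2 genes with the smallest p and the gene with the highest level per length, with Tnfsf11 and Tnfrsf11a, and for members whose groups do not overlap the 3 genes of most similar pattern, of which 1 is not reported here. Marker sums stand beside some results for comparison, and whether the levels follow them was not tested. No library pair of a group agreed within sampling noise, with chi-square values at least 94.2 times their degrees of freedom.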

Additional observations from a re-analysis of the deposited data

How the results depend on the processing

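The 7 members tested had 98 values under 14 alternatives each. Of these, 92 kept their direction and their side of the adjusted threshold, 6 reversed and 0 had an adjusted p under 0.05. Over all genes, DESeq2 moved the count of genes called from 0 to 26, and the other alternatives gave 0. The cause was not tested. The sign of Ank reversed with sample quality weights in limma-voom (-0.12), without control replicate 2 (-0.12), without mutant replicate 1 (-0.17) and between the 4 libraries of like smooth muscle level (-0.30), an alternative chosen after seeing the data. That of Alpl reversed without control replicate 2 (-0.065) and between those 4 libraries (-0.19). Leaving out each library in turn gave Ank -0.17 to 0.20 and Alpl -0.065 to 0.57, Tnfrsf11b -1.13 to -0.71, Enpp1 -0.43 to -0.29, Spp1 -2.85 to -0.47, Mgp -0.40 to -0.13 and Nt5e 0.094 to 0.34. The difference in mean level of Abcc6, mutants less controls, was -0.0401 CPM over all 6 libraries and ran from -0.100 CPM without mutant replicate 2 to 0.0136 CPM without mutant replicate 1, where its sign turned.

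Among the other genes named, Slc20a2 reversed with sample quality weights (-0.15), without control replicate 2 (-0.18), without mutant replicate 1 (-0.21) and between those 4 libraries (-0.40). Between the same 4 libraries Tnfrsf11a was at 0.11, Itgb1 at 0.16 and Sparc at 0.0027, and 5 genes kept their sign but moved over 1.5-fold beside those given in the text, Bmp4 to -0.24, Fgfr1 to -0.048, Gas6 to -0.13, Lgr4 to -0.35 and Phex to -0.70. Sample quality weights moved Mgp to -0.11, Nt5e to 0.11, Alpl to 0.094, Adora2b to -0.42, Adora3 to 1.35, Bmp4 to -0.42, Fgfr1 to -0.12, Itgb1 to -0.029 and Lgr4 to -0.16. Lgr4 was at 0.11 without control replicate 1 and 0.024 without mutant replicate 3, with a range of -0.22 to 0.11 over the libraries left out, and Itgb1 was at 0.071 without control replicate 2, with a range of -0.37 to 0.071.

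With the replicate number as a block, 0 genes were called, and Tnfrsf11b and Enpp1 had log2 fold changes of -0.96 and -0.38. Deviations of same-numbered libraries from their group means correlated across genes at 0.25, 0.053 and 0.035. The first of these was the highest of all pairs, while control replicate 2 correlated best with mutant replicate 3 (0.18). With 3 libraries per group, these values cannot show whether same-numbered samples share more than a number. Depth limited Abcc6 and Tnfsf11, which had at most 15 counts in a library.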
